A study of Rattus norvegicus with 4 samples.

Results

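N6-methyladenosine (m6A), the methyl mark that is placed on adenosines inside mRNAs, was examined here on the transcripts of 9 genes of the oligodendrocyte lineage, the glial cells that wrap axons in myelin. The genes were Olig1, Olig2, Sox10, Myrf, Pdgfra, Mbp, Mag, Mog and Cnp, and their m6A peaks were taken by gene name from the deposited tables. Together they held 25 of the 33056 peaks listed at 5 weeks of age and 23 of the 29653 peaks listed at 3 weeks. In a joint table, where 1 set of 12704 peaks was given an enrichment at both ages, 19 peaks belonged to 8 of the 9 genes, and Mag had none. Every peak of that table had p under 0.05 in the authors' comparison of the ages, so it is a selected set.

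The samples came from the arcuate nucleus of the hypothalamus of normally developing female Sprague-Dawley rats, and the study asked how m6A differs between early puberty and the juvenile stage. The 5-week pool, which the labels call ARC_352, and the 3-week pool, called ARC_212, each combined tissue of 3 rats, and no treatment is named for either. Each pool gave 1 library of RNA immunoprecipitated with an m6A antibody (IP) and 1 input library, so an enrichment rests on the 2 libraries of its age and a difference on all 4. The labels carry the pool codes without an age, and the ages follow the study's description of its pools. With 1 pool per age no difference below has a replicate check, no test was possible, and each comparison is between these libraries and not between ages in general.

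Oligodendrocytes arise from progenitors that carry the receptor Pdgfra and the transcription factors Olig1, Olig2 and Sox10. As they leave the cell cycle they switch on Myrf, which drives the genes of the myelin sheath, among them Mbp, Mag, Mog and Cnp. In the rodent brain myelination runs through the first postnatal weeks. On mRNAs, m6A is written by a methyltransferase complex around Mettl3 and Mettl14, can be removed by Fto and Alkbh5, and lies mostly near stop codons and in 3' UTRs, where reader proteins of the YTH family bind it.

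The value given for a peak is the log2 enrichment of IP over input, so that 1 unit is a 2-fold change, and a difference is the enrichment at 5 weeks minus that at 3 weeks. Over all genes the median log2 enrichment was 2.81 for peaks listed at 5 weeks and 3.17 for those listed at 3 weeks. Of the peaks listed separately at each age, 22403 could be paired, because they lay on the same gene and strand and overlapped. The median difference of these pairs was -0.31, and 69.0% of them were lower at 5 weeks, so a small negative difference was the common case for any gene. The tables hold no read counts and no input levels, so depth is unknown. They describe bulk tissue, in which a different number of oligodendrocytes and a different amount of RNA per cell cannot be told apart.

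All 9 genes had at least 1 listed peak at each age, and 19 peaks could be paired between the ages, each with the same annotated region at both. The median log2 enrichment over the peaks of the 9 genes was 2.83 at 5 weeks and 2.82 at 3 weeks. Of these peaks, 13 of 25 lay above the median of all peaks at 5 weeks and 8 of 23 at 3 weeks, and none reached the highest 10% of either list. Of the 19 pairs, 14 were lower and 5 higher at 5 weeks, and their median difference was -0.34. Past 2-fold, 3 pairs were lower, where 15.6% of all pairs were, and 1 was higher, where 4.88% of all pairs were. Both counts were near the shares over all pairs. The 3 lower pairs were on Olig2, Myrf and Pdgfra. The higher pair was on Mbp, whose start codon differed by -0.51 in the joint table.

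**Figure D1:**
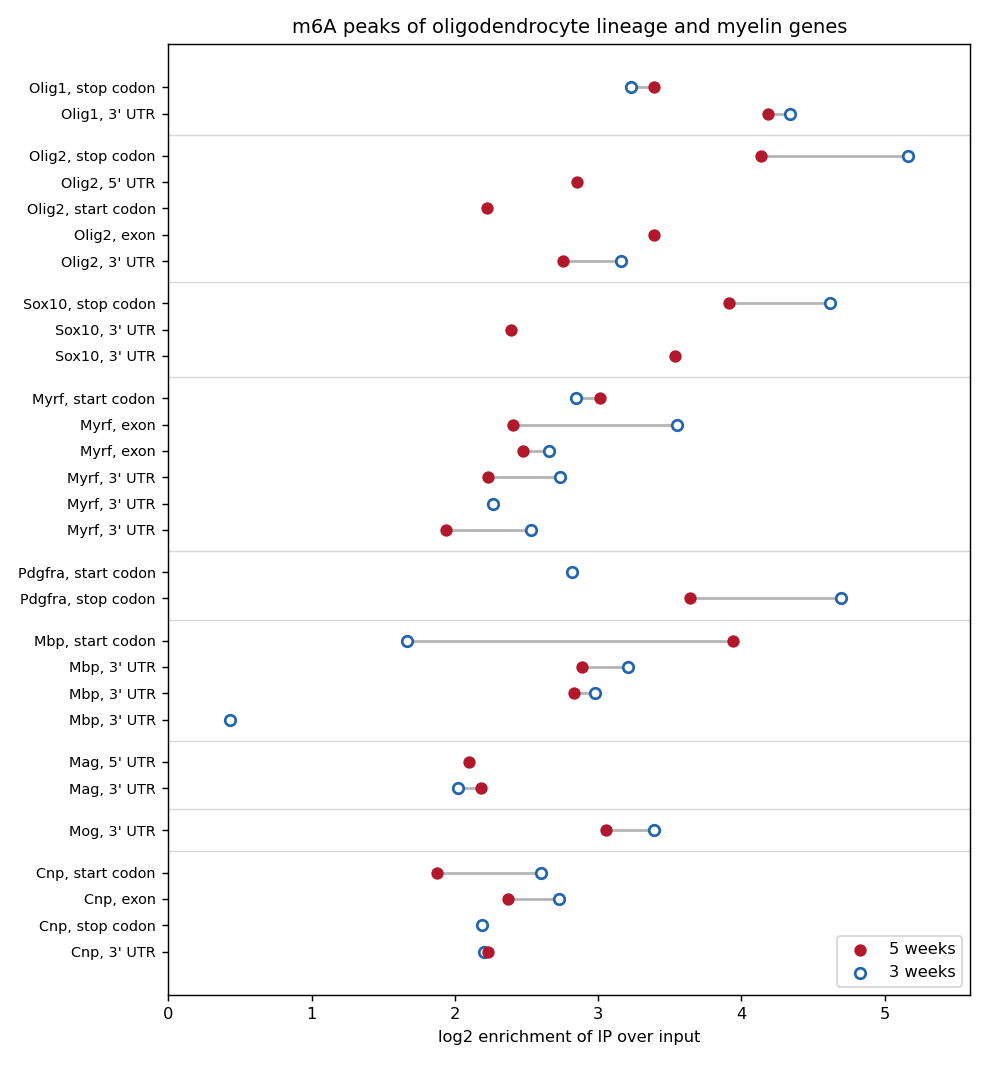
The log2 enrichment of IP over input (horizontal axis) of every listed peak of the 9 genes, 1 row per peak in the order along the gene, with filled points for 5 weeks, open points for 3 weeks and a grey line joining paired peaks. The points of most pairs lie close together, the 3-week point is to the right in 14 of 19 pairs, and the widest gap is that of the Mbp start codon, 3.94 at 5 weeks and 1.66 at 3 weeks.

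The lineage transcription factors and Pdgfra had 16 peaks at 5 weeks, with log2 enrichments of 1.94 to 4.19 and a median of 2.93, and 13 peaks at 3 weeks, with enrichments of 2.26 to 5.16 and a median of 3.16. The strongest peaks of Olig1, Olig2, Sox10 and Pdgfra lay at the stop codon or in the 3' UTR, the part of the transcript where m6A is usually densest, and those of Myrf at the start codon at 5 weeks and in an exon at 3 weeks. The myelin genes Mbp, Mag, Mog and Cnp had 9 peaks at 5 weeks, between 1.88 and 3.94 with a median of 2.37, and 10 peaks at 3 weeks, between 0.43 and 3.39 with a median of 2.40. In both lists the myelin genes thus had the lower median of these groups of genes.

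Olig1 and Olig2 encode basic helix-loop-helix factors that specify the lineage, and they are neighbours on chromosome 11, where Olig2 ends 34226 bases before Olig1 begins. Olig1 (chromosome 11, 30514379 to 30516521, plus strand) had a stop codon peak with an enrichment of 3.39 at 5 weeks and 3.23 at 3 weeks, a difference of 0.16. Its 3' UTR peak had 4.19 at 5 weeks and 4.34 at 3 weeks, a difference of -0.15. That 3' UTR peak was the most enriched of all peaks of the 9 genes at 5 weeks and lay above 92.6% of all 3' UTR peaks of that age. Olig1 therefore carried about the same enrichment at both ages in both peaks.

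Olig2 (chromosome 11, 30475398 to 30480152, plus strand) differed both in enrichment and in how its signal was divided. At 5 weeks it had 5 listed peaks, 2.85 in the 5' UTR, 2.23 at the start codon, 3.39 in an exon, 4.14 at the stop codon and 2.75 in the 3' UTR. At 3 weeks it had 2, a stop codon peak of 5.16 and a 3' UTR peak of 3.16. The 3-week stop codon peak was the most enriched peak of the 9 genes at either age, 35.8-fold over input, and ran over 2931 bases from position 30475523 to 30478453. It covered the stretch that held 4 separate peaks at 5 weeks. The paired stop codon peaks differed by -1.03, an enrichment at 5 weeks that was 0.491 times that at 3 weeks, but the 5-week peak covered only 34.1% of the 3-week span. The 3' UTR peaks, which covered nearly the same bases, differed by -0.41.

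Sox10, an HMG-box factor that acts from the progenitor to the myelinating cell (chromosome 7, 110725274 to 110735544, minus strand), showed the same division. At 5 weeks it had a stop codon peak of 3.91 and 3' UTR peaks of 2.39 and 3.54, and at 3 weeks a single stop codon peak of 4.62 that overlapped all 3 of them. The stop codon pair differed by -0.70. For all genes the median difference of stop codon pairs was -0.56, and 21.4% of those pairs were lower by 2-fold or more, so the stop codon was the region with the most negative median among the 5 regions in which the 9 genes had peaks.

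Myrf, the membrane-bound factor that is released to activate myelin genes (chromosome 1, 206854175 to 206886157, minus strand), had 5 peaks at 5 weeks and 6 at 3 weeks along its length. The start codon peak had an enrichment of 3.01 at 5 weeks and 2.84 at 3 weeks, a difference of 0.17. The neighbouring exon peak had 2.40 at 5 weeks and 3.55 at 3 weeks. This difference, -1.14 or 0.453 times, was the most negative among the 19 pairs, although the border between these neighbouring peaks was set at a different place at each age and only 41.8% of the 5-week exon peak was shared. A further exon peak had 2.48 at 5 weeks and 2.66 at 3 weeks, a difference of -0.18. In the 3' UTR, a pair with 2.23 at 5 weeks and 2.73 at 3 weeks differed by -0.50, and one at the very end of the transcript, with 1.94 at 5 weeks and 2.53 at 3 weeks, differed by -0.59. The sixth 3-week peak, 125 bases in the 3' UTR with 2.26, lay within a 5-week peak. In these lists Myrf thus combined 1 pair that was slightly higher at 5 weeks with 4 that were lower, whereas all 4 of its peaks in the joint table were lower.

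Pdgfra, the receptor for platelet-derived growth factor that marks progenitors (chromosome 14, 33005839 to 33054335, minus strand), had 1 peak at 5 weeks, a stop codon peak of 3.64. At 3 weeks it had a stop codon peak of 4.69 and a start codon peak of 2.82. The stop codon pair differed by -1.05, or 0.483 times, and the 5-week peak lay wholly inside the 3-week one and covered 90.8% of it. Of the 3 pairs that were lower past 2-fold this was the only one that shared more than 50% of each span. The start codon peak had no counterpart at 5 weeks within 28198 bases.

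**Figure D2:**
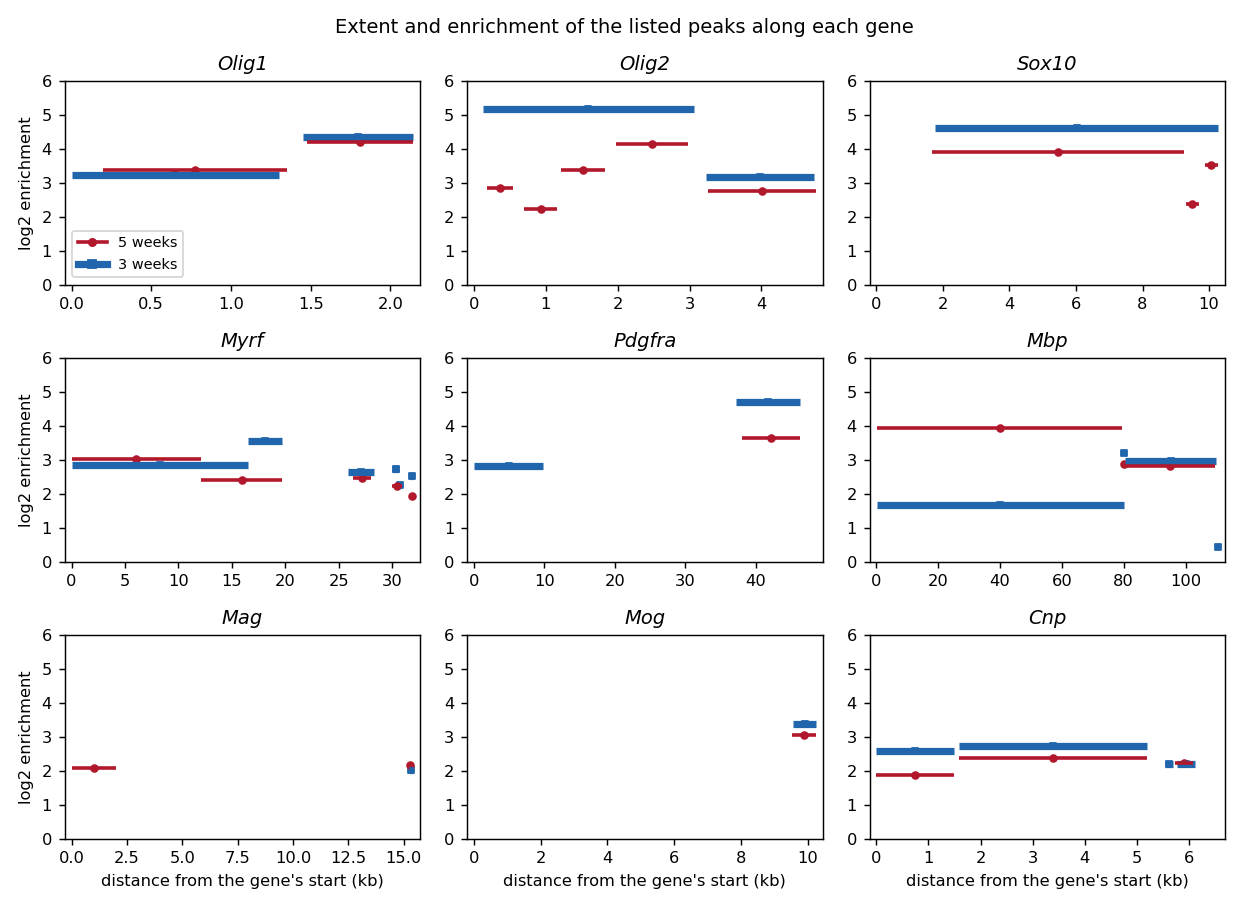
Each listed peak drawn from its first to its last base (horizontal axis, kilobases from the gene's start in the direction of transcription, introns included) at the height of its log2 enrichment (vertical axis), thin lines with round points for 5 weeks and thick lines with square points for 3 weeks. Single 3-week peaks on Olig2 and Sox10 cover stretches that hold several 5-week peaks, and the 79417-base Mbp start codon peak of 5 weeks lies far above its 3-week counterpart.

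Of the myelin genes, Mbp encodes myelin basic protein, which compacts the cytoplasmic faces of the sheath (chromosome 18, 75855878 to 75966404, plus strand). Its start codon peak had an enrichment of 3.94 at 5 weeks and 1.66 at 3 weeks, a difference of 2.28 or 4.85-fold, above 98.7% of all pairs. At 3 weeks this peak was among the lowest 1.77% of all peaks of that list. The spans were nearly the same, 79417 bases at 5 weeks and 79767 at 3 weeks, introns included. The 3-week peak ended at 75935844 and the 5-week peak at 75935469.

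The joint table gave another picture of the Mbp start codon. There the peak ended where the 5-week peak ends and had 3.76 at 5 weeks and 4.27 at 3 weeks, a difference of -0.51. A separate exon peak of 125 bases, from 75935570 to 75935694, had 1.41 at 5 weeks and 1.60 at 3 weeks and lay in the stretch that only the 3-week list had included in the start codon peak. The direction of the Mbp start codon difference was thus higher at 5 weeks in the separate lists and lower in the joint table, and the part played by the peak borders was not tested.

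The 3' UTR peaks of Mbp stayed close together. One had 2.89 at 5 weeks and 3.21 at 3 weeks, a difference of -0.32, and the other 2.83 at 5 weeks and 2.98 at 3 weeks, a difference of -0.14. At 3 weeks there was also a 194-base peak at the end of the gene with an enrichment of 0.43, which was the lowest of all 29653 peaks of that list. The joint table gave that end 0.88 at 5 weeks and 0.76 at 3 weeks, the only joint peak of the 9 genes that was higher at 5 weeks.

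Mag and Mog are glycoproteins of the sheath, the one on the membrane that faces the axon and the other on the outer surface. Mag (chromosome 1, 86148228 to 86163656, minus strand) had a 3' UTR peak of 2.18 at 5 weeks and 2.02 at 3 weeks, a difference of 0.16, and a 5' UTR peak of 2.10 at 5 weeks only, 13248 bases from the nearest 3-week peak. Mog (chromosome 20, 1513239 to 1523474, plus strand) had 1 peak, in the 3' UTR, with 3.06 at 5 weeks and 3.39 at 3 weeks, a difference of -0.34. The end of Mog overlaps peaks annotated to Zfp57 on the opposite strand at both ages, and whether the peak caller used the strand is not known, so its value is uncertain.

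Cnp encodes the phosphodiesterase that keeps cytoplasmic channels open in the sheath (chromosome 10, 85511160 to 85517720, plus strand). Its start codon peak, identical in position at both ages, had 1.88 at 5 weeks and 2.60 at 3 weeks, a difference of -0.72 that was the most negative of the 8 pairs of myelin genes. The exon peak, again identical in position, had 2.37 at 5 weeks and 2.72 at 3 weeks, a difference of -0.35. The 3' UTR peak had 2.23 at 5 weeks and 2.20 at 3 weeks, a difference of 0.03. A 150-base stop codon peak of 2.19 was listed at 3 weeks only, and the nearest 5-week peak began 50 bases further on. In the separate lists the difference along Cnp was thus most negative at the start of the transcript and near 0 at its end. In the joint table it was -0.96 at the start codon and -0.28 in the 3' UTR.

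By role, 9 of 11 pairs of the transcription factors and Pdgfra were lower at 5 weeks, 3 of them past 2-fold, where 15.6% of all pairs were. Their median difference was -0.50, with a range of -1.14 to 0.17. Of 8 pairs of the myelin genes 5 were lower, none past 2-fold, with a median of -0.23 and a range of -0.72 to 2.28. The roles also differed in region, as no myelin gene had a stop codon pair and most myelin pairs lay in the 3' UTR. Over all genes, stop codon pairs had a median of -0.56 with 21.4% lower past 2-fold, and 3' UTR pairs -0.23 with 11.1%. Role and region cannot be told apart here. Only 11 of the 19 pairs lay below the median of all pairs, 8 at or above it. The difference between the roles was not tested, since each age has 1 pool and the peaks of a gene are not independent.

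**Figure D3:**
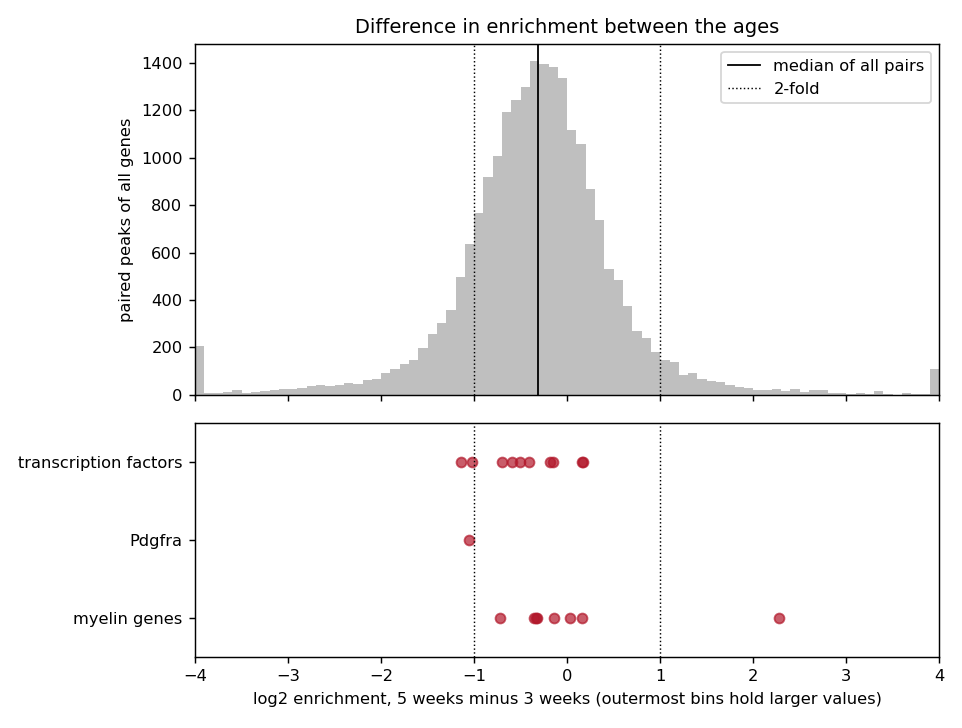
Above, the number of paired peaks of all genes in bins of the difference in log2 enrichment, 5 weeks minus 3 weeks (horizontal axis), with a solid line at the median of -0.31 and dotted lines at 2-fold. Below, the 19 pairs of the 9 genes by role, of which 18 lie between -1.14 and 0.17 and the Mbp start codon at 2.28.

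Of the peaks left unpaired, 6 at 5 weeks and 4 at 3 weeks, most marked a different division of the same stretch. At 5 weeks 5 of the 6, on Olig2 and Sox10, lay within a 3-week peak, and only the Mag 5' UTR peak touched none. At 3 weeks the Myrf peak touched a 5-week peak and 3 did not, on Pdgfra, Mbp and Cnp. The most enriched of the unpaired peaks was the Sox10 3' UTR peak of 3.54 at 5 weeks.

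The joint table uses the same peak borders at both ages. All its peaks had p under 0.05 in the authors' comparison of the ages, so its shares and medians describe a selected set. Few of its peaks lay near 0, as a difference of -0.19 ranked at 81.8% and one of 0.11 at 82.0%. Over all its peaks the median difference was -0.95, and 82.0% were lower at 5 weeks. Of the 19 peaks of the 9 genes 18 were lower, with a median of -0.63. Past 2-fold, 5 were lower, where 46.9% of all peaks of the table were, and none was higher, where 10.6% were. Of the 19, 6 lay below the median of the table.

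The transcription factors and Pdgfra held all 5 joint peaks past 2-fold, 5 of their 10, near the 46.9% lower past 2-fold in the whole table. The Olig2 stop codon had 3.68 at 5 weeks and 5.71 at 3 weeks, a difference of -2.03 or 0.245 times, and the Olig2 start codon 2.03 at 5 weeks and 3.04 at 3 weeks, a difference of -1.01. The Pdgfra stop codon had 3.45 at 5 weeks and 4.73 at 3 weeks, a difference of -1.28. Both Olig2 peaks lay in the stretch that the separate 3-week list had joined. The Myrf peak that spans the start codon and the next exon had 2.16 at 5 weeks and 3.39 at 3 weeks, a difference of -1.23. The Sox10 stop codon had 3.41 at 5 weeks and 4.48 at 3 weeks, a difference of -1.07. Over the 10 joint peaks of these genes, all were lower at 5 weeks and the median difference was -0.96, close to the -0.95 of the whole table.

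The 9 joint peaks of Mbp, Mog and Cnp differed less. Of these, 8 were lower and none passed 2-fold, with a range of -0.96 to 0.11 and a median of -0.45. The most negative was the Cnp start codon, 1.61 at 5 weeks and 2.57 at 3 weeks. The Mog 3' UTR had 3.02 at 5 weeks and 3.41 at 3 weeks, a difference of -0.39.

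**Figure D4:**
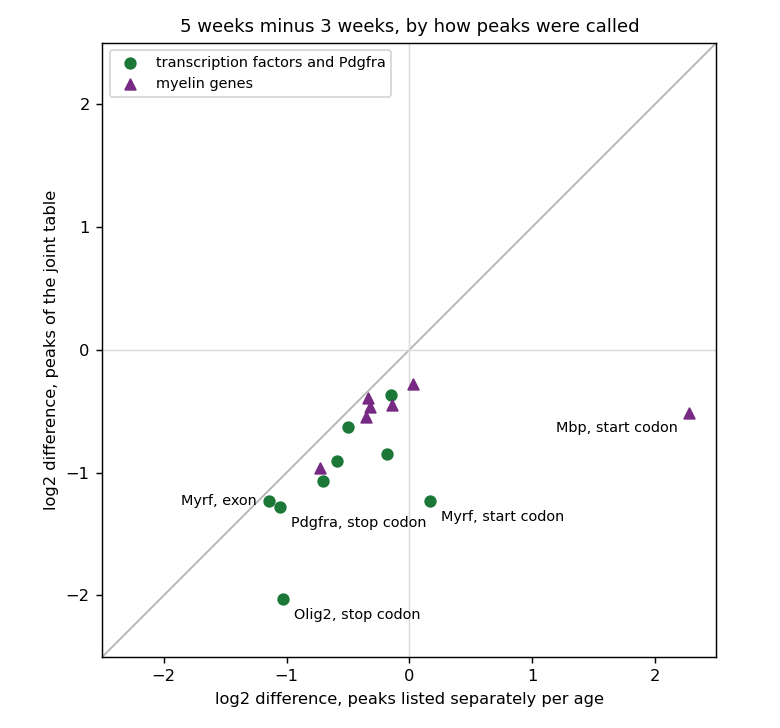
The log2 difference, 5 weeks minus 3 weeks, of the 16 pairs that overlap a joint peak, from the separate lists (horizontal axis) and from the joint table (vertical axis), with circles for the transcription factors and Pdgfra, triangles for the myelin genes and a grey line where both would be equal. All 16 lie below the line, the Mbp and Myrf start codons and the Olig2 stop codon farthest from it.

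Between the tables, 16 of the 19 pairs could be compared. In all 16 the joint difference was the more negative, as it was in 84.6% of the 10091 pairs of all genes that could be compared, and the median shift was -0.27 for the 9 genes and -0.20 for all. The sign differed for 3 of the 16, the start codons of Mbp and Myrf and the Cnp 3' UTR, against 3.60% of all pairs. The Myrf start codon, 0.17 in the separate lists, had -1.23 in the joint table, where its peak also holds the neighbouring exon.

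When each gene was represented by its pair of highest mean enrichment, 8 of the 9 genes were lower at 5 weeks, with a median of -0.35 against -0.43 for all 12507 genes with a pair. Olig2, Myrf and Pdgfra were lower past 2-fold, where 20.3% of all genes were, and none was higher, where 5.62% were. A wider list of 95 further oligodendrocyte genes had a similar median, -0.39, but a share lower past 2-fold below that of all genes. The 5-week list held peaks of 90 of them and the 3-week list of 89. Of 85 with a pair 62 were lower, where 9085 of all 12507 genes were. Past 2-fold, 10 were lower, where 20.3% of all genes were, and 3 were higher, where 5.62% were.

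Other progenitor genes had a median difference of -0.68, with 10 of 10 lower, where 9085 of all 12507 genes were. Over all 26 pairs of these genes the median was -0.38, against -0.31 for all pairs, and over their joint peaks it was -0.76, against -0.95 for the whole table. Sox5, which holds back differentiation, had 5.80 at 5 weeks and 8.46 at 3 weeks in its 5' UTR, while another of its pairs differed by 1.36. Pcdh15, a protocadherin of progenitors, had 4.62 at 5 weeks and 5.82 at 3 weeks. Id4, an inhibitor of helix-loop-helix factors, was among the most enriched at 5 weeks, with 5.22 against 5.49 at 3 weeks. Genes of committed and differentiating cells had a median of 0.03 over 9 genes in the separate lists. In the joint table, however, 11 of their 14 peaks were lower, with a median of -0.998. Past 2-fold 7 of the 14 were lower, where 46.9% of all peaks of that table were. Tns3 had 4.38 at 5 weeks and 5.52 at 3 weeks, while the leading pair of the Wnt effector Tcf7l2 had 4.23 at 5 weeks and 4.20 at 3 weeks and another of its pairs differed by -1.29.

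Further transcription factors went both ways, with 3 of 13 lower and 2 higher past 2-fold, where 20.3% and 5.62% of all genes were. Nkx2-2, a homeodomain factor of the lineage, had 3.60 at 5 weeks and 5.61 at 3 weeks, and Zfp24, a regulator of myelination, 2.54 at 5 weeks and 4.61 at 3 weeks, between a start codon peak at 5 weeks and a stop codon peak at 3 weeks. Zeb2, which promotes differentiation, had 4.69 at 5 weeks and 3.13 at 3 weeks, also between peaks of different annotated region. Another of its pairs differed by -0.62.

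In their leading pairs, other myelin protein genes, like the 4 described above, had no gene past 2-fold among 15. Of all genes 20.3% were lower and 5.62% higher past it. Their median was -0.13, against -0.43 for all genes. Most of these leading pairs lay in the 3' UTR, where all pairs had a median of -0.23. Most of those of the other progenitor genes lay at the stop codon, where it was -0.56, so role and region cannot be told apart. The most enriched were Ermn, a cytoskeletal protein of the sheath, with 5.11 at 5 weeks and 5.81 at 3 weeks, and Omg, a glycoprotein of oligodendrocytes and neurons, with 4.85 at 5 weeks and 5.63 at 3 weeks. None of the 13 genes of myelin lipid synthesis passed 2-fold in its leading pair either, with a median of -0.30. Of their 10 joint peaks, however, 4 were lower and 1 was higher past 2-fold, with a median of -0.91. Of the 16 joint peaks of the other myelin protein genes, 1 was lower and 1 higher past 2-fold, with a median of -0.52. Over all joint peaks, 46.9% were lower and 10.6% higher past 2-fold, with a median of -0.95. Elovl1, a fatty acid elongase, had 3.82 at 5 weeks and 3.89 at 3 weeks, though another of its pairs differed by -1.61, and Ugt8, which makes galactosylceramide, 3.73 at 5 weeks and 4.05 at 3 weeks.

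Genes of axon contact and coupling had a median of -0.36 over 12 genes. Cntn2, an adhesion molecule next to the node, had 3.60 at 5 weeks and 4.80 at 3 weeks. Dscam, an adhesion molecule found chiefly on neurons, had 7.96 at 5 weeks and 2.81 at 3 weeks in its 5' UTR, while another of its pairs differed by -0.94. Lingo1 had 4.78 at 5 weeks and 5.34 at 3 weeks. Survival and trophic genes had a median of -0.70 over 13 genes, against -0.43 for all genes. Of the 13, 12 were lower, where 9085 of all 12507 genes were. Past 2-fold 1 was lower, where 20.3% of all genes were. Most of their leading pairs lay at the stop codon, where the median of all pairs was -0.56. The receptor Igf1r had 3.35 at 5 weeks and 4.53 at 3 weeks, the ligand Nrg1 5.23 at 5 weeks and 6.05 at 3 weeks, and its receptor Erbb4 4.61 at 5 weeks and 5.24 at 3 weeks.

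**Figure D5:**
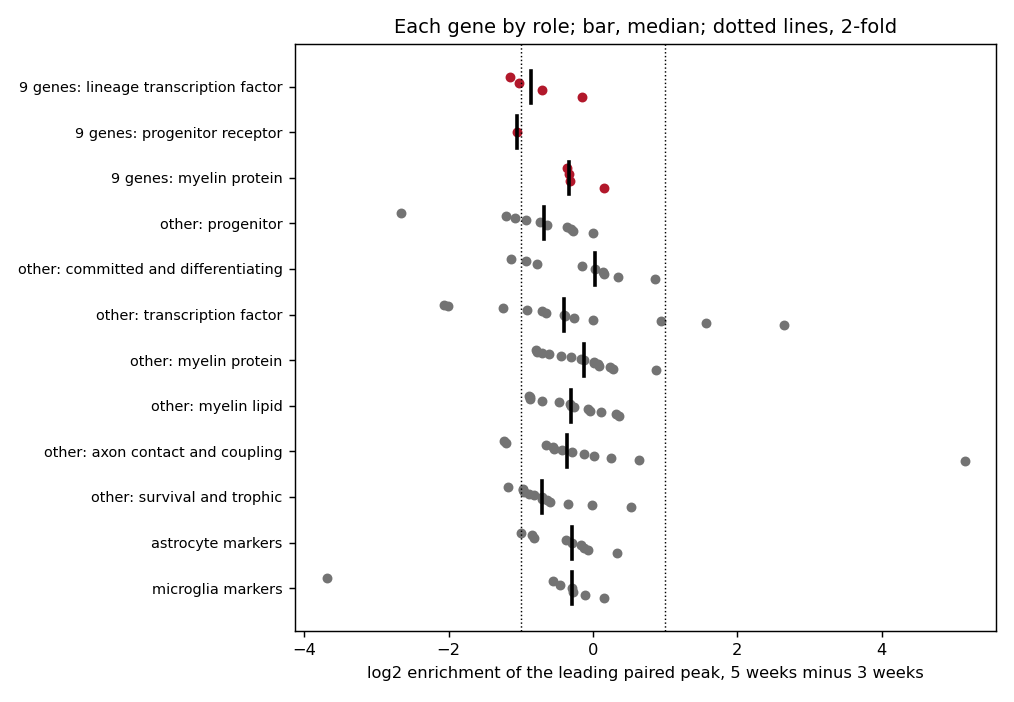
The log2 difference, 5 weeks minus 3 weeks, of the leading paired peak of each gene (horizontal axis), 1 point per gene in rows by role, with the 9 genes in red at the top, a bar at each median and dotted lines at 2-fold. Myelin protein and lipid genes stay between the dotted lines, the other progenitor genes have a median of -0.68, and Dscam lies farthest right at 5.15.

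Markers of other cells of the tissue also had listed peaks. Of 10 astrocyte markers all had a peak at both ages, and the 9 with a pair had a median difference of -0.29. Of 10 microglia markers 8 were in the 5-week list and 7 in the 3-week list, and the 7 with a pair had a median of -0.29. Of 10 markers of arcuate neurons 7 were in the 5-week list and 5 in the 3-week list, and the 5 with a pair had a median of -0.59. Agrp, Kiss1 and Ghrh had none at either age, which says nothing of their expression, since only enriched regions are listed.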

How the data were processed

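MeRIP-seq was performed on 1 pool of 3 rats per age, with 1 IP and 1 input library each. Per the submitters' processing notes, reads were handled with fastp 0.19.4 and HISAT2 2.0.4. Neither the caller of the peaks nor the gene models behind their annotation could be taken from the labels or the study. The same notes name a human build for these rat data, so positions are printed as listed, counted from 1, and no build is attached to them.

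The authors deposited a peak list per age, with the log2 enrichment of IP over input and a p-value for each peak, all with p under 0.05, and a joint table with the log2 enrichment at both ages. The joint table's own log2 fold changes and its p-value column are the authors' comparison and were not used, other than to see that every p was under 0.05. Spans include introns. No counts are given, so depth and the precision it gives are unknown. No column of per-sample values was left unused.

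Peaks were paired between ages on the same gene and strand with an overlap of at least 1 base, 1 to 1, the largest overlap first. The pairing was tested on simulated peaks with small border shifts, none of them split or joined, so the pairing of split peaks was not tested. A gene's leading pair had the highest mean enrichment. A difference of at least 1 on the log2 scale counted as 2-fold. No significance test was run. Alternatives were a log2 enrichment of at least 2 at both ages, an adjusted p under 0.001, 50% overlap of each peak, 1.5-fold, centring on the median of all pairs, and the joint table.

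All peaks of the 9 genes are described. Of 95 other oligodendrocyte genes, those named are, per role, up to 2 past 2-fold in each direction with the largest change and up to 2 with the highest enrichment at 5 weeks, of which some are not reported here. Genes and lists were chosen with earlier results of these data known. Python 3.11.15, pandas 2.3.3, numpy 2.4.6 and matplotlib 3.10.9 were used.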

Additional observations from a re-analysis of the deposited data

How the results depend on the processing

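With 1 pool per age, no value has a replicate error, and peak borders differ between the separate lists. The median difference of the 19 pairs, -0.34, was -0.026 when centred on the median of all pairs. The 19 joint peaks of the 9 genes are not the same set, since only 16 pairs overlap a joint peak. Over these joint peaks the median was -0.63. It was 0.33 when centred on the median of the joint table, an alternative chosen after seeing the data. The count of pairs lower past 2-fold, 3, was 6 at 1.5-fold and 0 after centring on all pairs. The count of pairs higher past 2-fold, 1, was 0 where both peaks had to reach a log2 enrichment of 2. The median over the 9 genes, -0.35, was -0.045 after centring and -0.81 over the 8 genes in the joint table, also chosen after seeing the data. That over the other oligodendrocyte genes, -0.39, was -0.084 after centring. Among single pairs, the start codons of Mbp and Myrf and the Cnp 3' UTR changed sign in the joint table, with -0.51, -1.23 and -0.28. Counts of listed and of paired peaks stayed within 1.5 times under a log2 enrichment of 2, an adjusted p of 0.001, 50% overlap and annotation by position. No paired analysis was possible because each age has 1 pool.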
